A study of Mus musculus with 12 samples.

Results

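The cytochrome P450 genes of the mouse lung were followed through 48 h of hyperoxia. They were taken as every gene with a transcript cluster of a single platform symbol that begins with Cyp and a digit. Left out were Cyp51, a sterol demethylase of cholesterol synthesis, and Cyp2f2, a P450 that also serves as a club cell marker. The rule gave 85 genes of the 19938 named by a single symbol, each read from the 1 transcript cluster it had among 35556. Of these, 38 had a mean log2 value of at least 7 over the 12 arrays and were described singly, and 47 lay under it. At that limit, Cyp2c23 had a mean of 7.14 and Cyp2d10, the nearest gene under it, a mean of 6.9994.

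The mice were wild-type C57BL/6J females and males, 8 to 10 weeks old, and breathed either room air or oxygen at an FiO2 above 95%. Each of the 4 groups, female room air, female hyperoxia, male room air and male hyperoxia, had 3 arrays. An array held total lung RNA pooled from 4 mice, so the spread between arrays is that between pools and not between single animals. Hyperoxia was compared with room air within each sex, and the sexes were compared by the difference of those changes and directly within each treatment.

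P450 enzymes are haem proteins that insert an oxygen atom into a substrate, with electrons passed on from NADPH by a reductase or, in mitochondria, by ferredoxin. Families CYP1 to CYP3 mainly oxidise drugs, pollutants and other foreign compounds, family CYP4 hydroxylates fatty acids and eicosanoids, and others act on cholesterol, bile acids, retinoic acid, vitamin D or steroid hormones. In the lung many of the foreign-compound enzymes sit in club cells and alveolar type II cells, and the CYP1 genes answer to the aryl hydrocarbon receptor.

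The array medians lay between 8.12 and 8.20 on the log2 scale, and any pair of arrays correlated across clusters with r between 0.969 and 0.995. The lung label was borne by the alveolar type II markers, whose list mean was between 12.14 and 12.72 on every array. Several cell type markers moved with hyperoxia, counted by the rule for calls given in the next paragraph. That rule called 3.59% of all clusters higher and 2.93% lower in females, and 3.94% and 3.39% in males. Of 14 club cell markers 7 were lower in each sex, and their mean was 11.63 to 11.83 in female room air against 10.68 to 11.20 in female hyperoxia, and 11.11 to 11.64 against 10.79 to 11.08 in males. Of 10 alveolar type II markers 6 were lower in females and 3 in males, of 12 endothelial markers 5 were lower in each sex, and of 7 macrophage markers 3 were higher in females and 2 in males. In such whole-lung RNA, fewer cells of a type and less RNA per cell cannot be told apart, and the part of these shifts in the P450 values was not tested.

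Cyp7b1 rose in both sexes and Cyp2j9 and Cyp27a1 fell in both. A gene was called when the limma adjusted p was under 0.05 over all clusters and the fold was at least 1.4, a log2 change of 0.485. In females 1 of the 85 genes rose and 3 fell, where the same rule called 3.59% of all clusters higher and 2.93% lower. In males 1 rose and 3 fell, against 3.94% and 3.39% of all clusters. These shares of the 85 genes were 1.18% higher and 3.53% lower in each sex. Cyp4f18 was called lower in males and Cyp2c67 in females, and the other 80 genes were called in neither sex. The median log2 change over the 85 genes was -0.02 in females and 0.00 in males, beside -0.02 and -0.00 over all clusters. The change was under 0.5 in size in both sexes for 76 genes.

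Without the fold limit, an adjusted p under 0.05 was reached by 3 genes higher and 8 lower in females, against 9.08% and 8.62% of all clusters. In males it was reached by 3 higher and 4 lower, against 10.0% and 9.30%. The 3 hyperoxia arrays lay above the 3 room air arrays for 7 of the 85 genes in females and for 11 in males, where 14.7% and 16.2% of all clusters did so. They lay below for 9 genes in females and 10 in males, where 15.7% and 16.7% of all clusters did so. The 95% interval of the change lay within a 1.4-fold change either way in both sexes for 50 of the 85 genes, and for the others the interval reached that size in at least 1 sex.

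**Figure D1:**
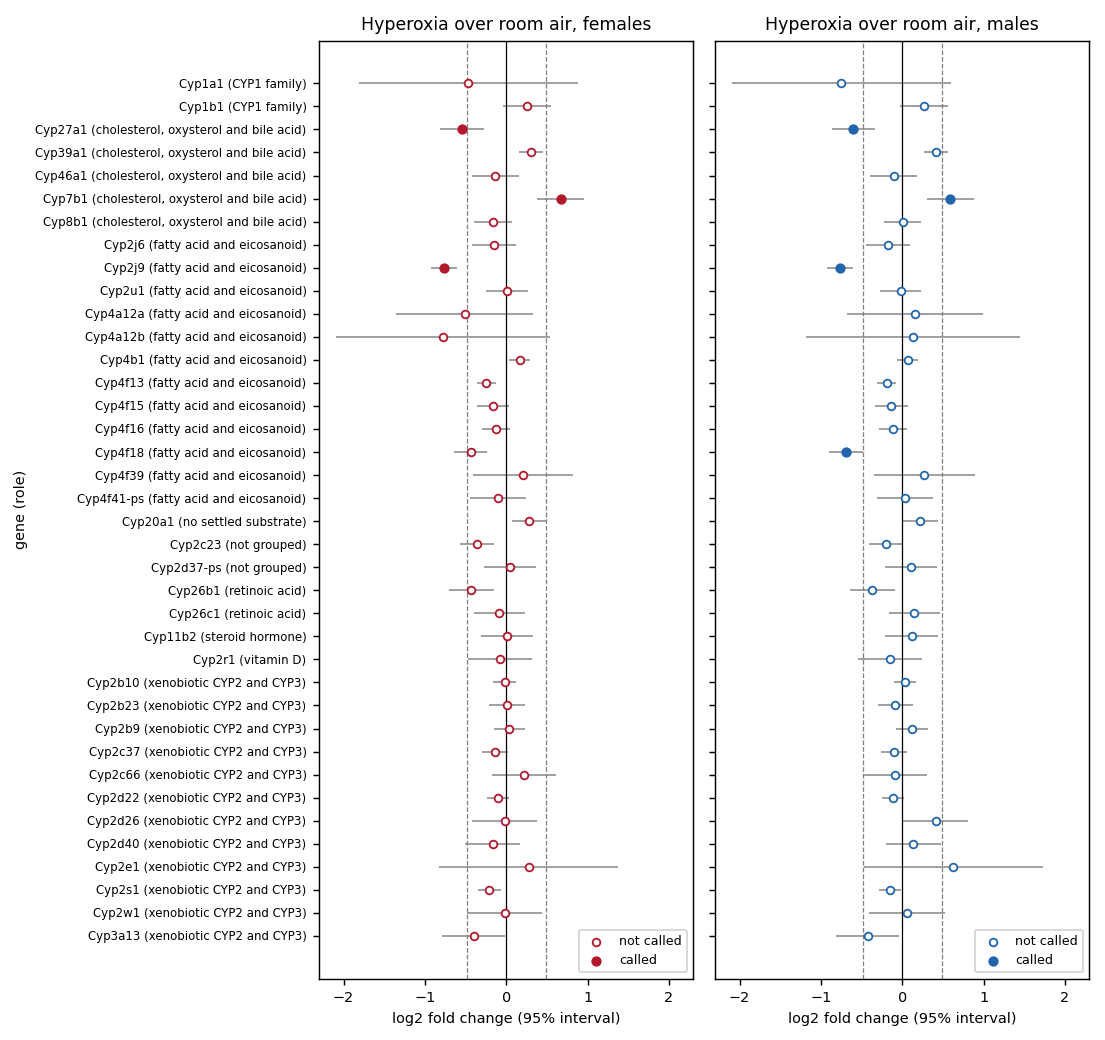
Log2 fold change between hyperoxia and room air pools for the 38 P450 genes with a mean log2 of at least 7, in females (left) and males (right), ordered by role. Circles are the limma estimates from 3 pools a group, lines their 95% intervals, filled circles are called genes and dashed lines mark a 1.4-fold change. Cyp7b1 lies to the right and Cyp27a1 and Cyp2j9 to the left in both panels, Cyp4f18 is filled in males only, and Cyp1a1, Cyp4a12a, Cyp4a12b and Cyp2e1 have the widest lines.

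**Figure D2:**
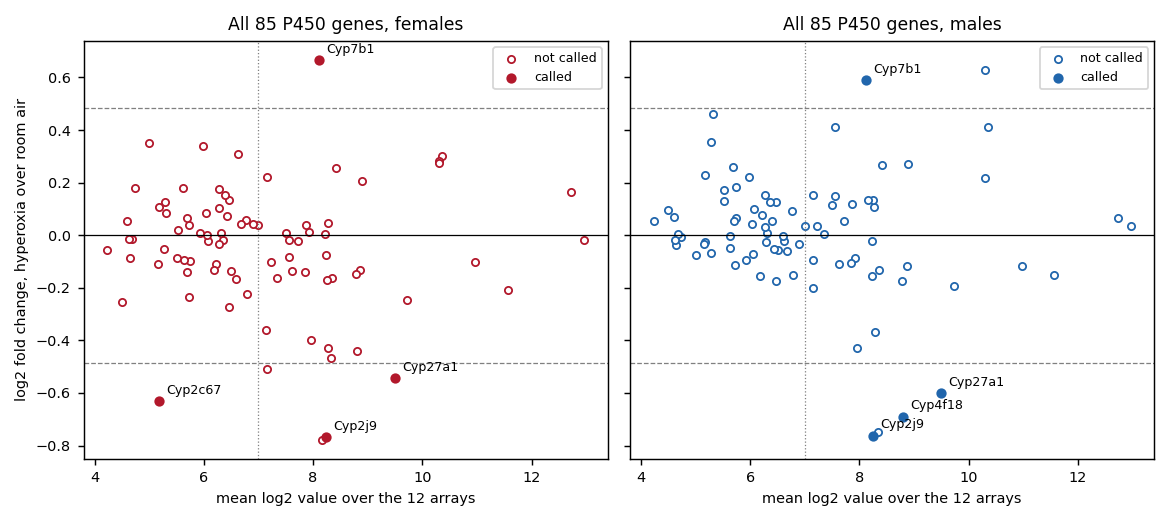
Log2 fold change against the mean log2 value over the 12 arrays for all 85 P450 genes, in females (left) and males (right). Filled circles are called genes, dashed lines mark a 1.4-fold change and the dotted line the mean of 7. Of the 47 genes left of the dotted line, Cyp2c67 in females is the 1 that is called.

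The enzymes of cholesterol, oxysterol and bile acid metabolism held the gene that rose and 1 of those that fell in both sexes. Of the 6 such genes, 1 rose and 1 fell in each sex and 4 were not called. Over all clusters 3.59% rose and 2.93% fell in females, and 3.94% and 3.39% in males. Cyp7b1, the oxysterol hydroxylase that clears side-chain oxysterols, read 7.68, 7.55 and 7.95 on the female room air arrays and 8.48, 8.32 and 8.38 on the female hyperoxia arrays. In males it read 7.59, 8.02 and 8.00 in room air and 8.48, 8.52 and 8.38 in hyperoxia. Every hyperoxia array was above every room air array of the same sex, and the room air pools were the more scattered. The log2 change was 0.67 (SE 0.13, 1.59-fold, adjusted p = 0.00441) in females and 0.59 (SE 0.13, 1.51-fold, adjusted p = 0.00814) in males. The male change rested in part on the first room air pool: without it the change was 0.45 with an adjusted p of 0.0196, under the fold limit.

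Cyp27a1, the mitochondrial sterol hydroxylase that makes side-chain oxysterols and starts the acidic route to bile acids, went the other way. It read 9.99, 9.83 and 9.85 in female room air and 9.61, 9.14 and 9.28 in female hyperoxia. In males the values were 9.67, 9.70 and 9.63 in room air and 9.05, 9.25 and 8.90 in hyperoxia. The groups did not overlap in either sex, and the first female hyperoxia pool was the nearest to room air. The log2 change was -0.54 (SE 0.12, 1.46-fold lower, adjusted p = 0.00978) in females and -0.60 (SE 0.12, 1.52-fold lower, adjusted p = 0.00519) in males. In females the fold limit was missed without the second hyperoxia pool, where the change was -0.44 with an adjusted p of 0.0325.

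Cyp39a1, which hydroxylates an oxysterol made in the brain, moved less than 1.4-fold. Its female arrays read 10.17, 10.22 and 10.35 in room air and 10.51, 10.50 and 10.64 in hyperoxia. Its male arrays read 10.07, 10.19 and 10.05 in room air and 10.55, 10.51 and 10.49 in hyperoxia. There was no overlap in either sex, and the log2 change was 0.30 (adjusted p = 0.0101) in females and 0.41 (adjusted p = 0.00149) in males, with an SE of 0.07. Cyp46a1, the cholesterol hydroxylase of neurons, had log2 changes of -0.14 in females and -0.11 in males with an SE of 0.13. Cyp8b1, the sterol hydroxylase that sets the make-up of the bile acid pool, had changes of -0.16 and 0.00 with an SE of 0.10. Cyp7a1, the rate-limiting enzyme of bile acid synthesis, lay under a mean of 7, with changes of -0.11 and -0.03.

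**Figure D3:**
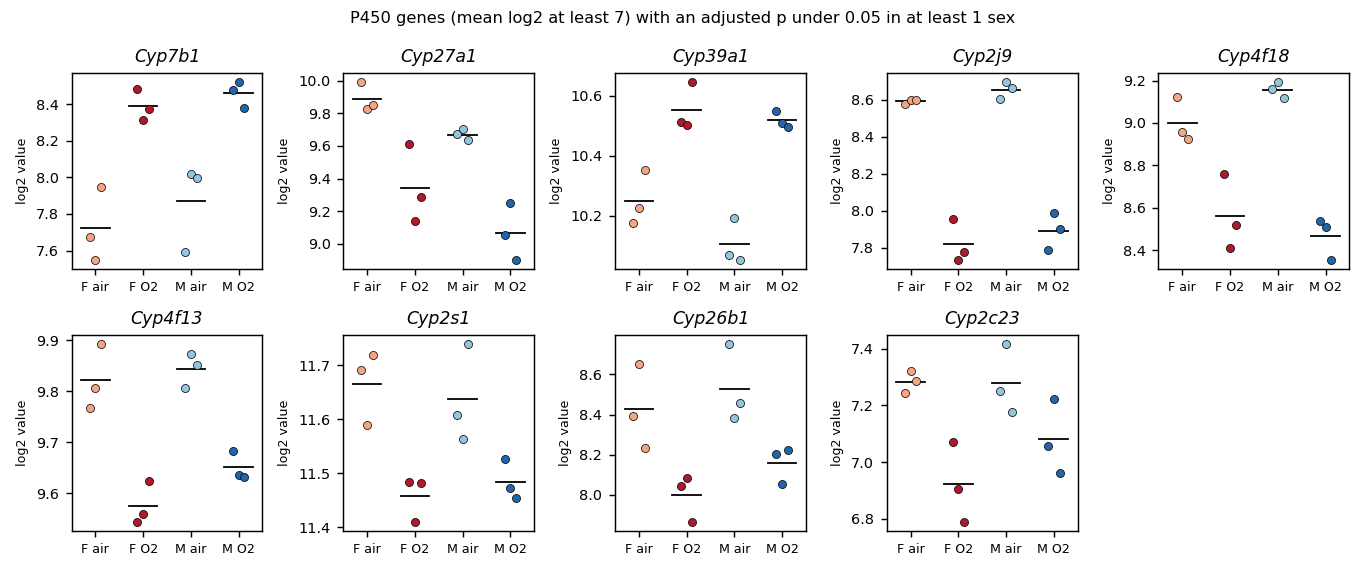
Log2 values of the 9 P450 genes with a mean log2 of at least 7 and an adjusted p under 0.05 in at least 1 sex, by group (F female, M male, air room air, O2 hyperoxia). Each circle is 1 pool of 4 mice and the bar is the mean of 3 pools; each panel has its own axis, which does not start at 0. Cyp7b1 and Cyp39a1 are higher and the other 7 lower in the hyperoxia pools of both sexes, without overlap between room air and hyperoxia within a sex except for Cyp2c23 in males.

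Among the 23 genes of fatty acid and eicosanoid metabolism 1 fell in females, 2 fell in males and none rose in either sex. Over all clusters 2.93% fell in females and 3.39% in males, and 3.59% and 3.94% rose. Cyp2j9, an arachidonic acid-metabolising enzyme, had the smallest adjusted p of the 85 genes in both sexes. It read 8.58, 8.60 and 8.60 in female room air and 7.96, 7.73 and 7.78 in female hyperoxia. In males it read 8.60, 8.69 and 8.66 in room air and 7.79, 7.99 and 7.90 in hyperoxia. All 6 hyperoxia arrays were below all 6 room air arrays. The log2 change was -0.77 (SE 0.07, 1.70-fold lower, adjusted p = 4.95e-05) in females and -0.76 (SE 0.07, 1.70-fold lower, adjusted p = 4.43e-05) in males.

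Cyp2j9 lies beside 5 other Cyp2j genes of the set, and none of those neighbours was called. Cyp2j6, likewise an arachidonic acid-metabolising enzyme, had log2 changes of -0.15 in females and -0.17 in males with an SE of 0.12. The remaining 4, Cyp2j5, Cyp2j11, Cyp2j12 and Cyp2j13, had means under 7 and were not called. The highest change of the 6 was 0.06 in females and 0.17 in males. Sequences shared between these close relatives can blur such probe values.

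Cyp4f18, known as the enzyme of neutrophils that inactivates leukotriene B4, read 9.12, 8.96 and 8.92 in female room air and 8.76, 8.41 and 8.52 in female hyperoxia. In males it read 9.16, 9.19 and 9.12 in room air and 8.54, 8.51 and 8.35 in hyperoxia. Hyperoxia and room air arrays were apart in both sexes. The log2 change in males was -0.69 (SE 0.09, 1.61-fold lower, adjusted p = 0.000489). In females it was -0.44 (SE 0.09, 1.36-fold lower, adjusted p = 0.00792), short of the fold limit, and it passed that limit at -0.54 (adjusted p = 0.00227) without the first hyperoxia pool. The male change minus the female change was -0.25 (SE 0.13, unadjusted p = 0.0872), so the sexes were not shown to differ. The mean of the 10 neutrophil markers was 8.89 to 9.49 in male room air and 8.41 to 8.58 in male hyperoxia, where 5 of them were lower. In females it was 8.71 to 9.38 and 8.53 to 8.91, and none was called. The part of the neutrophil markers in the Cyp4f18 values was not tested.

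The 8 Cyp4f genes that lie together away from Cyp4f18 were not called in either sex, and their changes ran from -0.25 to 0.20 in females and from -0.19 to 0.27 in males. Cyp4f13, a leukotriene and fatty acid hydroxylase, read 9.77, 9.81 and 9.89 in female room air against 9.54, 9.56 and 9.62 in hyperoxia, and 9.81, 9.87 and 9.85 against 9.68, 9.64 and 9.63 in males. The changes of -0.25 (SE 0.05, adjusted p = 0.00801) and -0.19 (adjusted p = 0.0262) were larger than the spread between pools but under 1.4-fold. Cyp4f15 had changes of -0.16 and -0.13 with an SE of 0.09, and Cyp4f16 of -0.13 and -0.12 with an SE of 0.08, neither past the test. The transcribed pseudogene Cyp4f41-ps had -0.10 and 0.03 with an SE of 0.16.

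Cyp4f39, which makes the very long-chain hydroxy fatty acids of the skin barrier, varied between pools. It read 9.32, 8.52 and 8.93 in female room air and 9.85, 8.72 and 8.81 in female hyperoxia, while the male arrays lay between 8.55 and 8.72 in room air and between 8.78 and 9.01 in hyperoxia. Its changes were 0.20 in females and 0.27 in males with an SE of 0.28, not past the test, and the female change was -0.16 without the first hyperoxia pool. The female hyperoxia and room air pools with the highest values were also those with the highest mean of the 14 squamous epithelium markers, 9.97 and 9.67, and the part of the latter was not tested.

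Cyp4b1, a fatty acid and lung toxin hydroxylase of club cells, read 12.49, 12.67 and 12.63 in female room air and 12.70, 12.78 and 12.80 in female hyperoxia, which did not overlap. Its male arrays read 12.73, 12.75 and 12.77 in room air and 12.79, 12.82 and 12.84 in hyperoxia. The changes, 0.16 (adjusted p = 0.0854) and 0.07 (adjusted p = 0.596) with an SE of 0.06, did not pass the test. Cyp2u1, a fatty acid hydroxylase, had changes of 0.01 and -0.02 with an SE of 0.12.

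Cyp4a12a and Cyp4a12b, near-identical arachidonic acid hydroxylases whose probes may share signal, were among the 4 genes of the set whose within-group SD was over 0.5. Cyp4a12a read 7.24, 7.38 and 7.47 in female room air, 7.50, 6.33 and 6.73 in female hyperoxia, 7.53, 6.42 and 7.43 in male room air and 6.72, 7.86 and 7.27 in male hyperoxia. Cyp4a12b read 8.53, 8.17 and 8.58, then 8.41, 6.68 and 7.87, then 8.79, 6.98 and 8.87, and then 7.50, 9.13 and 8.40 in the same order of groups. For both genes the second female hyperoxia pool and the second male room air pool were the low ones and the second male hyperoxia pool was the high one. Cyp4a12b had a log2 change of -0.78 (95% interval -2.09 to 0.54) in females and 0.13 (-1.18 to 1.45) in males. Cyp4a12a had -0.51 (-1.35 to 0.33) and 0.15 (-0.69 to 0.99), so that a rise of 1.4-fold in females lay outside the interval while a fall of that size, and either in males, lay within it. The male changes turned to -0.20 for Cyp4a12a and -0.48 for Cyp4a12b without the second room air pool.

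**Figure D4:**
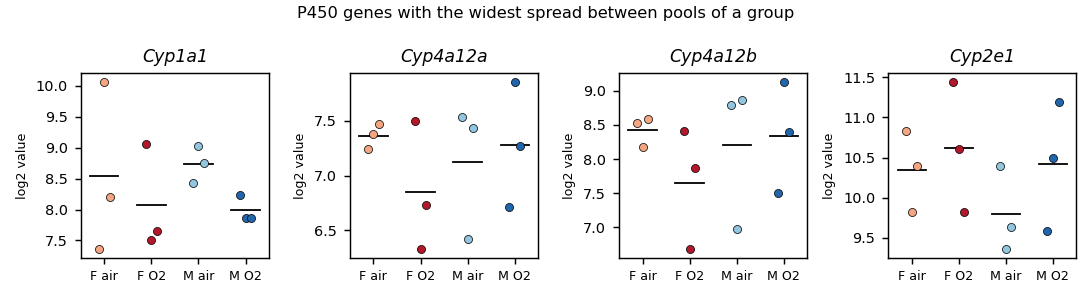
Log2 values of the 4 P450 genes with a within-group SD over 0.5, by group (F female, M male, air room air, O2 hyperoxia). Each circle is 1 pool of 4 mice and the bar is the mean of 3 pools; each panel has its own axis, which does not start at 0. Room air and hyperoxia pools overlap in both sexes for each gene with the exception of Cyp1a1 in males.

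The CYP1 family, the classic targets of the aryl hydrocarbon receptor, had no called gene among its 3. Cyp1a1, which oxidises polycyclic aromatic hydrocarbons, read 7.36, 10.06 and 8.21 in female room air and 9.06, 7.51 and 7.65 in female hyperoxia. In males it read 8.42, 9.03 and 8.75 in room air and 8.24, 7.85 and 7.86 in hyperoxia. The male pools did not overlap, with room air the higher, while the female room air pools spanned all female hyperoxia pools. Its within-group SD was 0.84, and 0.644% of all clusters had a larger one. The log2 change was -0.47 (95% interval -1.81 to 0.88, adjusted p = 0.772) in females and -0.75 (-2.10 to 0.60, adjusted p = 0.542) in males. Without the second female room air pool the female change was 0.29, the other way. Fitted on the 6 male arrays alone, the same male change had an adjusted p of 0.0433 and passed both limits.

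Cyp1b1, which oxidises hydrocarbons and oestrogens, read 8.32, 8.25 and 8.26 in female room air and 8.89, 8.37 and 8.34 in hyperoxia, and 8.41, 8.21 and 8.26 against 8.51, 8.48 and 8.70 in males. The arrays did not overlap in either sex, yet the changes of 0.26 (SE 0.13, adjusted p = 0.261) and 0.27 (SE 0.13, adjusted p = 0.235) did not pass the test. Cyp1a2, the arylamine-oxidising neighbour of Cyp1a1, had a mean under 7 and changes of 0.09 and 0.04.

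To set sequence beside these values, the 250 bases before the start site are shown for the 3 genes called lower in males, Cyp2j9, Cyp27a1 and Cyp4f18, and for Cyp1a1 (RefSeq, GRCm38.p6, each 5′ to 3′ on the strand of its gene). Capitals mark GCGTG, the core bound by the aryl hydrocarbon receptor, or TGACNNNGC, the core of the antioxidant element, both searched on both strands. Cyp2j9 lies on the minus strand with its window at chr4:96591486-96591735, Cyp27a1 on the plus strand at chr1:74713285-74713534, Cyp4f18 on the minus strand at chr8:72009627-72009876 and Cyp1a1 on the plus strand at chr9:57697363-57697612.
Cyp2j9: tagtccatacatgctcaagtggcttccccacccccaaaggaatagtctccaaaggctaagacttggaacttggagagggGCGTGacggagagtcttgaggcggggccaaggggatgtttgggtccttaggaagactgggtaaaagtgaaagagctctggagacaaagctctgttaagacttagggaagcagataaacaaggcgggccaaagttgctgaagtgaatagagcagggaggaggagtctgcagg
Cyp27a1: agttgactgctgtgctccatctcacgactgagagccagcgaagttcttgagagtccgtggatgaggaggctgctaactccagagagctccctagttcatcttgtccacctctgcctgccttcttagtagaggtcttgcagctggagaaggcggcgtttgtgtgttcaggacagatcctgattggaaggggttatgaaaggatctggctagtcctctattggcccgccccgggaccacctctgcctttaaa
Cyp4f18: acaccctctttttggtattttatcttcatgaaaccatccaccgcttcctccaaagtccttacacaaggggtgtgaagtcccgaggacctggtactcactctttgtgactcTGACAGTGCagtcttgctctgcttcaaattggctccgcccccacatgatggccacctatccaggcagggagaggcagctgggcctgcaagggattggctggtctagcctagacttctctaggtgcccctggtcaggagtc
Cyp1a1: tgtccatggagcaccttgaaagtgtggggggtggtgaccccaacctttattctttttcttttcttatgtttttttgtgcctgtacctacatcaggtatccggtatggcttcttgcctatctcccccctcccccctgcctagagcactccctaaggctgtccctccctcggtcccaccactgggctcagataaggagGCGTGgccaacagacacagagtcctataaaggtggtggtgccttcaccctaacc

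With positions counted back from the start site, GCGTG began at -171 in Cyp2j9 and at -54 in Cyp1a1, and TGACNNNGC began at -140 in Cyp4f18. The window of Cyp27a1 held neither, and none of the 4 windows held both. Windows were found for 62 of the 85 genes, 70 in all, with overlapping windows of the same gene each counted. Among the called genes, Cyp7b1 had no window and the window of Cyp2c67 held neither motif. GCGTG was in 21.4% of the 70 and in 28.2% of the 32851 windows of all genes, and TGACNNNGC in 4.3% and 10.2%. These matches are letters in a window, not measured binding.

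The foreign-compound enzymes of the CYP2 and CYP3 families made the largest role group, and of its 40 genes none rose in either sex, 1 fell in females and none fell in males. Beside these counts, 3.59% of all clusters rose and 2.93% fell in females, and 3.94% and 3.39% in males. Cyp2b10, the phenobarbital-inducible enzyme, stayed within a narrow range. It read 12.90, 12.98 and 13.00 in female room air, 12.94, 12.84 and 13.04 in female hyperoxia, 12.89, 13.00 and 12.98 in male room air and 13.02, 12.99 and 12.97 in male hyperoxia. Its changes of -0.02 (95% interval -0.16 to 0.12) and 0.04 (-0.10 to 0.17) left a 1.4-fold change outside the interval in both sexes. Its neighbours Cyp2b23 and Cyp2b9 had changes of 0.01 and -0.08 (SE 0.10) and of 0.04 and 0.12 (SE 0.09).

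Cyp2s1, an enzyme of airway epithelium that metabolises retinoids and prostaglandins, read 11.69, 11.59 and 11.72 in female room air and 11.48, 11.41 and 11.48 in hyperoxia, and 11.61, 11.56 and 11.74 against 11.53, 11.47 and 11.45 in males. Hyperoxia lay below room air without overlap in both sexes. The changes were small, -0.21 (SE 0.06, adjusted p = 0.0436) and -0.15 (adjusted p = 0.133), and the female adjusted p was 0.0649 with the replicate number as a block within each sex. Cyp3a13, the CYP3A enzyme found outside the liver, had changes of -0.40 (SE 0.17, adjusted p = 0.170) and -0.43 (adjusted p = 0.132), and in females the change passed both limits at -0.58 (adjusted p = 0.0348) without the first hyperoxia pool. In males its arrays read 7.91, 8.25 and 8.01 in room air and 7.48, 7.85 and 7.55 in hyperoxia, apart by a narrow margin.

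Cyp2e1, the ethanol-oxidising enzyme also found in fat, was scattered in every group. It read 10.83, 9.82 and 10.40 in female room air, 11.45, 10.60 and 9.82 in female hyperoxia, 10.40, 9.35 and 9.63 in male room air and 9.58, 10.49 and 11.19 in male hyperoxia. Its change of 0.28 (95% interval -0.83 to 1.38) in females and 0.63 (-0.48 to 1.73) in males did not pass the test, and the female change was -0.14 without the first hyperoxia pool. The mean of the 7 fat cell markers, which ranged from 7.92 to 9.34 over the arrays, put the 3 pools in the same order as Cyp2e1 in all 4 groups. That was 1 of 2 such pairs among 44 pairs of a scattered gene and a marker list, and the part of fat in the Cyp2e1 values was not tested.

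The other foreign-compound genes with a mean of at least 7 gave small changes, none past the test. Cyp2d22, the counterpart of the human drug-metabolising CYP2D enzyme, had -0.10 in females and -0.12 in males (SE 0.06). Cyp2d26 had -0.02 and 0.41 (SE 0.18) and Cyp2d40 had -0.17 and 0.14 (SE 0.15). Cyp2c37, an arachidonic acid-oxidising liver enzyme, had -0.14 and -0.11 (SE 0.07) and Cyp2c66 had 0.22 and -0.09 (SE 0.18). Cyp2w1, an enzyme of fetal gut and tumours, had -0.02 and 0.05 (SE 0.21). The 10 genes of the Cyp2d group ranged from -0.17 to 0.15 in females and from -0.12 to 0.41 in males. The 10 neighbouring genes of the Cyp2a, Cyp2b, Cyp2g, Cyp2s and Cyp2t groups ranged from -0.27 to 0.18 and from -0.17 to 0.12. In both sexes every gene of these 2 groups stayed uncalled.

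Cyp2c67, a liver enzyme of the CYP2C group, was the 1 called gene with a mean under 7, at 5.18. It read 5.10, 5.86 and 5.49 in female room air and 4.73, 4.91 and 4.91 in female hyperoxia, against 5.21, 4.92 and 5.12 and then 5.17, 5.48 and 5.29 in males. The female pools did not overlap and the male pools did. The log2 change was -0.63 (SE 0.17, 1.55-fold lower, adjusted p = 0.0255) in females and 0.23 (adjusted p = 0.478) in males. The female call was lost without room air pool 2 or 3, at -0.44 (adjusted p = 0.0747) and -0.63 (adjusted p = 0.0669), and without hyperoxia pool 1 or 3, at -0.57 (adjusted p = 0.0884) and -0.66 (adjusted p = 0.0590). The other 11 genes of its neighbourhood, all of the CYP2C group, were not called, and a cluster shared by Cyp2c67, Cyp2c68, Cyp2c69 and Cyp2c40 stood outside the 85.

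Of the 3 retinoic acid hydroxylases none was called. Cyp26b1, which clears retinoic acid in the lung, read 8.39, 8.65 and 8.23 in female room air and 8.05, 8.08 and 7.87 in hyperoxia, and 8.75, 8.38 and 8.46 against 8.20, 8.06 and 8.22 in males. Hyperoxia lay below room air without overlap in both sexes. The changes were -0.43 (SE 0.12, adjusted p = 0.0380) and -0.37 (adjusted p = 0.0661), under 1.4-fold, and in females -0.52 (adjusted p = 0.0229) without the third room air pool, which passed both limits. With the replicate number as a limma block within each sex, chosen after seeing the data, the adjusted p of Cyp26b1 was 0.0149 in females and 0.0233 in males. The changes were the same, under 1.4-fold. Cyp26c1 had changes of -0.08 and 0.15 (SE 0.14).

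The remaining roles held no called gene. Cyp2r1, which hydroxylates vitamin D, had changes of -0.08 and -0.16 (SE 0.18), and Cyp11b2, the aldosterone synthase of the adrenal gland, of 0.01 and 0.11 (SE 0.14). Cyp20a1, whose substrate is not settled, read 10.04, 10.12 and 10.34 in female room air and 10.39, 10.42 and 10.53 in hyperoxia, and 9.99, 10.34 and 10.21 against 10.43, 10.40 and 10.37 in males. Its changes of 0.28 (SE 0.10, adjusted p = 0.0790) and 0.22 (adjusted p = 0.185) did not pass the test, although the arrays did not overlap in either sex. Cyp2c23, which was put in no role, had -0.36 (SE 0.09, adjusted p = 0.0225) in females, under 1.4-fold, and -0.20 (adjusted p = 0.204) in males. The pseudogene Cyp2d37-ps had 0.04 and 0.11 (SE 0.14).

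Of the 47 genes under a mean of 7, 46 were called in neither sex. Calls were rare among all named genes under that mean, at 0.304% higher and 0.467% lower in females. In males these shares were 0.187% and 0.280%. The changes of the 47 genes ran from -0.63 to 0.35 in females and from -0.17 to 0.46 in males. An adjusted p under 0.05 without the fold limit was reached by Cyp4a14, a fatty acid hydroxylase of the liver, at 0.31 (adjusted p = 0.0377) in females, and by Cyp3a44, a female-predominant liver enzyme, at 0.46 (adjusted p = 0.00236) in males. With the replicate number as a limma block within each sex, the adjusted p was 0.0837 for Cyp4a14 in females and 0.0118 for Cyp3a44 in males. Cyp4a14 read 6.54, 6.57 and 6.57 in female room air and 6.92, 6.95 and 6.73 in female hyperoxia. Cyp3a44 read 5.19, 4.89 and 5.08 in male room air and 5.53, 5.54 and 5.48 in male hyperoxia.

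The sexes were next compared. In 51 of the 85 genes the changes of females and males had the same sign. The difference of the log2 changes, males minus females, was tested as an interaction. It was called by limma for 0 of the 85 genes and for 0% of all clusters. Beside 516 of the 35556 clusters, 4 of the 85 genes had an unadjusted limma p under 0.05. In the limma fit these were Cyp2c67 at 0.86 (SE 0.24), Cyp3a44 at 0.38 (SE 0.12), Cyp2c50 at 0.40 (SE 0.14) and Cyp4a14 at -0.33 (SE 0.13), all with means under 7 and an adjusted p of 1.00. For the 3 genes called in both sexes the interaction was small, -0.08 (SE 0.18) for Cyp7b1, -0.06 (SE 0.17) for Cyp27a1 and 0.01 (SE 0.10) for Cyp2j9.

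In room air no P450 gene was called between males and females, beside 0.0141% of all clusters. Beside 869 of the 35556 clusters, 4 of the 85 genes had an unadjusted limma p under 0.05. They were Cyp3a44 (-0.25, males minus females), Cyp4b1 (0.16), Cyp21a1 (0.25), a steroid hydroxylase, and Cyp2c67 (-0.40), and each had an adjusted p of 1.00. In hyperoxia no P450 gene was called either, beside 0.0169% of all clusters. Beside 1160 of the 35556 clusters, 4 of the 85 genes had an unadjusted limma p under 0.05. These genes were Cyp4a14 (-0.35, males minus females), Cyp2c67 (0.46), Cyp4a10 (-0.38) and Cyp27a1 (-0.28), and each had an adjusted p of 0.945.

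Genes that serve the P450 enzymes were counted from lists. The same rule called 3.59% of all clusters higher and 2.93% lower in females, and 3.94% and 3.39% in males. Of 9 redox partners measured, 1 was higher in each sex. This was Cyb5r1, a cytochrome b5 reductase, with 9.44, 9.29 and 9.34 in female room air and 10.15, 10.19 and 10.29 in hyperoxia, and changes of 0.85 in females and 0.96 in males (SE 0.06). Of 12 genes of haem synthesis and breakdown, 2 were higher and 2 lower in females, and 3 were higher and 1 lower in males. Hmox1, the haem-degrading oxygenase induced by oxidant stress, changed by 1.19 and 1.34 (SE 0.11). Cpox, which makes a haem precursor in mitochondria, changed by 0.81 and 0.76 (SE 0.06). Alas2, the erythroid enzyme of the first step, was lower in females at -0.66 and had -0.39 in males (SE 0.12), and Blvrb, a biliverdin reductase, was higher in males at 0.72 and had 0.47 in females (SE 0.07).

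Of 21 receptors and their partners 1 was higher and 1 lower in each sex, or 4.76% each way, beside the shares of all clusters given above. Ahr, the aryl hydrocarbon receptor that drives the CYP1 genes, read 11.22, 11.31 and 11.24 in female room air and 10.72, 10.79 and 10.66 in female hyperoxia, and 11.33, 11.53 and 11.50 against 10.83, 10.83 and 10.72 in males. Its log2 change was -0.53 in females and -0.66 in males (SE 0.07), and both were called. Pparg, the lipid-sensing receptor, rose by 0.59 and 0.66 (SE 0.06). Of 15 related enzymes 1 was higher and 3 lower in females, and 2 were higher and 3 lower in males. Lrat, which esterifies retinol, had changes of -2.04 in females and -2.56 in males (SE 0.17). The flavin monooxygenases Fmo5 and Fmo1 were lower too, with changes of -1.01 and -1.20 (SE 0.06) and of -0.76 and -0.88 (SE 0.08), while Fmo2 of the same family had 0.16 and -0.03 and was not called. Ephx1, the epoxide hydrolase that detoxifies P450 products, rose by 0.52 and 0.56 (SE 0.08).

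**Figure D5:**
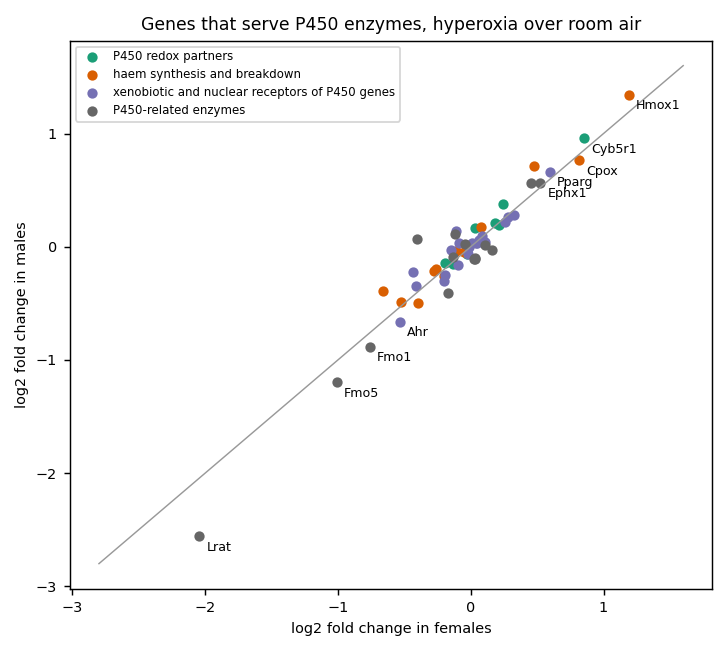
Changes in males (vertical axis) plotted against those in females (horizontal axis), as log2 fold change between hyperoxia and room air pools, for the measured redox partners, haem genes, receptors and related enzymes of P450 genes. Each circle is 1 gene and the line marks equal changes in both sexes. Lrat, Fmo5, Fmo1 and Ahr lie at the lower left and Hmox1, Cyb5r1, Cpox, Pparg and Ephx1 at the upper right, and most other genes lie near 0.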

How the data were processed

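Total lung RNA of 12 pools was hybridised to Affymetrix Mouse Gene 1.0 ST arrays. The authors made the deposited log2 values by robust multichip averaging (RMA), which corrects background, brings the arrays to a common distribution and summarises probes into 1 value per transcript cluster, so that a shift shared by most genes of an array is removed. Symbols came from the platform annotation, with 21789 clusters of 1 symbol, 1621 of several and 12146 not listed. The 7 clusters with several symbols, at least 1 of them a Cyp symbol, were left out. Among these were a cluster shared by Cyp2a5 and Cyp2a4, with a mean of 10.285, and a cluster shared by Cyp4v3 and Klkb1, with a mean of 8.73.

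The values of all 35556 clusters were fitted with limma 3.58.1 in R 4.3.3 (4 group means, contrasts, eBayes), with Benjamini-Hochberg adjustment over all clusters in each contrast. Calls needed an adjusted p under 0.05 and a fold of at least 1.4, the thresholds of the study. SE is that of the fitted log2 difference. The fit was tested on simulated data. The number of arrays, 3 a group, limits the precision, and the p-values set each difference against the spread between pools.

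The P450 genes and the gene lists were chosen with earlier results of these data known. Genes with a mean log2 of at least 7 were described singly, called genes with every array, and dimmer genes by counts and ranges. Called genes of a list were named up to 4 a list. Dimmer genes named for an unadjusted p, for an adjusted p without the fold limit or as neighbours were chosen after their values were seen.

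Deviations from the group means of same-numbered arrays correlated at 0.283 to 0.698 in the 3 female pairs of room air and hyperoxia. Those of differently numbered female arrays correlated at -0.741 to 0.582, so the ranges overlapped. The numbers come from the labels, and these values cannot settle whether they pair the arrays. In males the range was -0.168 to 0.330 for same-numbered arrays, with 2 of 3 pairs over 0.1, and -0.462 to 0.401 for the others. The fit reported above used no pairing in either sex. The results were recomputed with a replicate block over all arrays and, chosen after seeing the data, within each sex, with each sex or treatment fitted separately, with robust eBayes and a trend, with array weights, with quantile normalisation repeated, with arrays centred on their median, without clusters whose mean log2 was under 5, with only the highest cluster of each gene, with any cluster of a gene, under other thresholds and member rules, with the mean squamous marker level as a term, without the 3 pools richest in squamous markers, and without each array in turn.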

Additional observations from a re-analysis of the deposited data

How the results depend on the processing

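In the fit reported above, 1 P450 gene was called higher and 3 lower in each sex. A replicate block over all 12 arrays gave the same counts, 1 and 3 in females and 1 and 3 in males. A replicate block within each sex, chosen after seeing the data, called the same genes, 1 and 3 in each sex, and 0 between the sexes, and changed no other call. With no limit on the fold, females had 3 genes higher and 8 lower, and males had 3 higher and 4 lower. With a fold of at least 2 there were 0 in each direction and sex. With array weights 2 were higher and 4 lower in females, and 1 gene was called between the sexes in hyperoxia. Centring on the median gave 2 higher in males, and adding Cyp51 and Cyp2f2 gave 2 higher in each sex. Without the 3 pools with the highest squamous marker means, 0 were higher in females. Leaving out each array in turn, the count lower in females ran from 2 to 4, 1 gene was higher in each sex every time, and the count lower in males ran from 3 to 3. The gene higher was Cyp7b1 except without the first male room air pool, where it was Cyp3a44 in males (0.53, adjusted p = 0.00183).

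No change called in the fit reported above turned its direction under these alternatives. Changes uncalled in that fit did so 60 times among the 39 genes with a mean log2 of at least 7 or a call. Those 3 pools were female hyperoxia 1 and female room air 1 and 3, so that 1 female room air pool was left, assumed to vary like the other groups. Without them the female log2 change was 0.80 for Cyp7b1, -0.61 for Cyp27a1, -0.49 for Cyp4f18 and -2.48 for Cyp1a1. In that fit Cyp7b1 and Cyp27a1 were not called in females, although their changes were larger than in the fit reported above. The male change of Cyp1a1 was -0.75. The female room air pool left was the second, which had the highest Cyp1a1 value of its group, 10.06, so the female Cyp1a1 change rested on that pool. With only that pool left out the female Cyp1a1 change was 0.29, and with array weights it was 0.11. With array weights Cyp26b1 (-0.50) and Cyp4f18 (-0.54) were called in females and Cyp2c67 was not (-0.34, adjusted p = 0.0602), and with females fitted alone Cyp2c67 was not called (adjusted p = 0.0937). The causes were not tested. The number of arrays, 3 a group, limited the precision most for the 4 genes with a within-group SD over 0.5.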
